A study of Mus musculus with 14 samples.

Results

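The nuclear genes for the enzymes of oxidative phosphorylation were followed through 14 RNA-seq libraries of mouse small cell lung cancer cells. Members were all gene symbols beginning with Ndufa, Ndufb, Ndufc, Ndufs or Ndufv and a digit, with Uqcr, with Cox4 to Cox8 or with Atp5, together with Sdha, Sdhb, Sdhc and Sdhd. This gave 85 of the 32926 symbols in the table. Complex I had 35 (7 core and 28 accessory subunits), complex II 4, complex III 8 and complex V 15. Complex IV had 19, with 11 common subunits and 8 other forms, restricted to certain tissues or, for Ndufa4l2, induced by low oxygen. Ndufa4 and Ndufa4l2 were placed in complex IV, where the protein is found. Another 4 symbols matched but encode no subunit: Cox7a2l, a factor of supercomplex assembly, Atp5s and Atp5sl, and the processed pseudogene Atp5l-ps1.

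Mitochondria make ATP by passing electrons down the respiratory chain. Complex I takes them from NADH and complex II from succinate, complex III hands them to cytochrome c, and complex IV reduces oxygen with them. Complexes I, III and IV pump protons, and the ATP synthase, complex V, uses the proton gradient. All of these but complex II are built from subunits of both the nuclear and the mitochondrial genome. Several complex IV subunits have a common form and a form of heart and skeletal muscle, lung or testis.

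The cells came from lung tumours of adult mice of mixed strain that carry CGRPCreER/+;Rbf/f;P53f/f;Ptenf/f and were injected with TM, so Cre was driven from the calcitonin gene-related peptide locus of neuroendocrine cells. All libraries share this background. The groups were Non-NE cells and NE cells (non-neuroendocrine and neuroendocrine, 3 libraries each), and NE cells with Rosa26rtTA;Tet-onYAP5SA at days 0, 3, 7 and 21 (2 libraries each), grown in Hites medium. YAP5SA is a mutant of the coactivator YAP that escapes inhibition by the Hippo pathway. The text of day 0 replicate 1 lists no transgene, the labels do not say that libraries of a group came from separate cultures, and p-values then measure only the spread between these libraries. The numbering of the P53 allele in the genotype label runs upward over several samples and was not used.

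Libraries held 6730816 to 10659524 counts. NE replicate 2 held 85.7% of the total of day 0 replicate 1 and exceeded it in 0 genes, against 7413 genes for NE replicate 3, and its counts deviated from a random part of that library by 1.03 times the binomial variance over 12673 genes. The NE and day 0 groups are therefore not independent, and comparisons with NE are also given without that library where this changes a call. The NE markers summed to 56.2 to 410.4 CPM in Non-NE against 2475 to 3944 CPM in NE libraries, and to 679 to 688 CPM at day 21 against 3806 to 4014 CPM at day 0, with Calca at 0 at day 0 and in both the Non-NE and NE groups. Non-NE or mesenchymal markers summed to 9136 to 23468 CPM in Non-NE against 8.57 to 22.6 CPM in NE libraries, and to 1553 to 1677 CPM at day 21 against 7.69 to 8.35 CPM at day 0. Epithelial markers summed to 4.73 to 30.7 CPM in Non-NE against 2117 to 2989 CPM in NE libraries. Fibroblast markers summed to 9096 to 16775 CPM in Non-NE (Thy1 at 0) against 2.97 to 8.24 CPM in NE libraries, and to 727 to 812 CPM at day 21 against 6.56 to 7.59 CPM at day 0. Macrophage and leukocyte markers summed to 116 to 139 CPM at day 21 (Ptprc at 0) against 6.84 to 7.50 CPM at day 0. The part of these markers in the results was not tested, and in bulk RNA fewer cells of a type and less RNA per cell cannot be told apart.

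Sequence upstream of the members is described first, and its part in their changes was not tested. RefSeq promoters (GRCm38.p6, 250 bases before to 50 after the gene start) matched 69 of the 85 members. The NRF1 core GCGCATG, read on both strands, lay in 13 of the 69 (18.8%), against 4.41% of 27025 promoters. The ETS motif CCGGAAG, the core read by GABP, lay in 16 (23.2%) against 9.93%, and the YY1 motif AAGATGG in 12 (17.4%) against 7.28%. Overlapping matches were all kept. Among members lower at day 21 with a promoter (n = 41), 24.4% held the ETS motif and 17.1% the YY1 motif, against 24.0% and 20.0% of the other tested members (n = 25). For NRF1 the order depended on the form searched: the core was held by 14.6% of the members lower at day 21 and 24.0% of the others, and a longer form with a free middle base by 26.8% and 20.0% (24.6% of all matched members, against 5.19% of promoters). The core was chosen after the longer form had been searched. A match is a description and not a bound site. The promoters below are those of the complex III and IV subunits with the largest falls at day 21, Uqcrh (chr4:116075021-116075320 on the minus strand) and Cox7a2 (chr9:79759804-79760103 on the minus strand), of the muscle form Cox7a1 (chr7:30183921-30184220 on the plus strand) and of the common subunit Cox6a1 (chr5:115348909-115349208 on the minus strand). Each is written 5′ to 3′ along its gene, and capitals mark the motifs.
Uqcrh: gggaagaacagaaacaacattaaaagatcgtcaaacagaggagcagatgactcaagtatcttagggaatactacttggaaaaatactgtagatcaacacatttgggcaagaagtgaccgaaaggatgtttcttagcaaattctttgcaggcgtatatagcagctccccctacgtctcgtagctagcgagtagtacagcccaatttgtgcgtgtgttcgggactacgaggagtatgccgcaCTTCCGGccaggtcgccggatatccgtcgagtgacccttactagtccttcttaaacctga
Cox7a2: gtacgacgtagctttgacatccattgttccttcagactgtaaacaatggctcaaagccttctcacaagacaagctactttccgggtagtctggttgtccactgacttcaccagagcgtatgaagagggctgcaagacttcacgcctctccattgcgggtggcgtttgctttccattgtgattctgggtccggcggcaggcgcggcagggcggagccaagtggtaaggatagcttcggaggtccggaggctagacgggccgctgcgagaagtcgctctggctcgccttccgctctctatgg
Cox7a1: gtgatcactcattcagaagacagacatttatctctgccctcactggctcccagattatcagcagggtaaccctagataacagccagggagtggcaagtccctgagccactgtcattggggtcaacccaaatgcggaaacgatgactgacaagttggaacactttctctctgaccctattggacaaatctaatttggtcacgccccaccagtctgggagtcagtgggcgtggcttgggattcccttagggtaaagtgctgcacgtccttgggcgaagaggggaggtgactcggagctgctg
Cox6a1: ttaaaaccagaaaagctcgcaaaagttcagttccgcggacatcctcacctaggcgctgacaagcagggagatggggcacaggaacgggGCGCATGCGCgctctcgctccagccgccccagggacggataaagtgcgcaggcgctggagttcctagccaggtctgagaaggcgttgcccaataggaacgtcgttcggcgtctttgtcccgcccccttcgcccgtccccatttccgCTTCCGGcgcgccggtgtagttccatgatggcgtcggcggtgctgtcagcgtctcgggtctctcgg
The Cox6a1 promoter held the NRF1 core at 2 overlapping places, 1 on each strand, and the ETS motif once, the Uqcrh promoter held the ETS motif once, and the Cox7a2 and Cox7a1 promoters held none of the 3.

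The first question was how the genes behaved as YAP5SA stayed on. At day 21 most subunits of complexes III, IV and V and most accessory subunits of complex I stood below day 0. Of 78 members tested by edgeR's quasi-likelihood test across all genes (adjusted p under 0.05), 48 fell and 5 rose. Over all genes tested 34.0% fell and 37.7% rose (71.7% either way), and the median log2 change was -0.44 over the members and 0.02 over all genes. The log2 change was negative in 60 of the 78. When each library was left out in turn, 42 of the 48 falls and 4 of the 5 rises kept the call. Under every setting run 24 falls and 0 rises kept it, since the fit of all 14 libraries in 1 model called no rise.

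Complex V fell most evenly. At day 21, 12 of its 14 tested subunits fell and 0 rose, with a median log2 change of -0.61. In the catalytic F1 head 4 of 5 fell, among them Atp5a1 (alpha, -0.29), Atp5b (the catalytic beta subunit, -0.35), Atp5c1 (the rotating gamma subunit, -0.74) and Atp5e (epsilon, -0.65), while Atp5d (delta) stood at 0.11 and did not pass the test. In the stalk and membrane part 8 of 9 fell. Atp5k, the e subunit at the dimer interface, had 64.7 and 53.1 CPM at day 0, 58.3 and 55.1 CPM at day 3, 40.6 and 45.2 CPM at day 7 and 33.2 and 29.2 CPM at day 21 (log2 change -0.92, SE 0.11, adjusted p = 3.52e-08, 21 against 0). CPM here and below are counts normalised to library size after TMM scaling, separately over the NE and Non-NE set and over the days. Both day 21 libraries were below all libraries of days 0, 3 and 7 for Atp5k. Of the genes for the c subunit of the rotor ring, Atp5g1 stood at a log2 change of -0.61 and Atp5g3 at -0.54, and Atp5g2 had 1 to 9 counts in a library and was not tested. Atp5h lost its call without day 21 replicate 2 (log2 change -0.15, adjusted p = 0.179).

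Complex III split by subunit. At day 21, 5 of its 8 subunits fell and 1 rose, with a median log2 change of -0.57. Uqcrh, the hinge protein that contacts cytochrome c, had 121 and 127 CPM at day 0, 112 and 95.9 CPM at day 3, 69.4 and 56.8 CPM at day 7 and 48.0 and 45.9 CPM at day 21. The level stepped down between every pair of neighbouring days, and by day 21 it was 2.63-fold below day 0 (log2 change -1.40, SE 0.10, adjusted p = 1.41e-12). The step from day 0 to day 3 (log2 change -0.25) was not called by the DESeq2 test (adjusted p = 0.0525). It stood at -0.29 and -0.22 without day 0 replicates 1 and 2, and at -0.14 without day 3 replicate 2. The step from day 7 to day 21 (-0.43) stood at -0.28 without day 7 replicate 1. Uqcrb, a small subunit close to the quinone site, had 63.9 and 62.2 CPM at day 0, 56.0 and 57.2 CPM at day 3, 49.8 and 42.6 CPM at day 7 and 23.3 and 31.3 CPM at day 21 (log2 change -1.21, SE 0.11, adjusted p = 6.31e-10). Of the 50-base words of Uqcrb, 43.2% also occur in transcripts of other genes, so its counts are uncertain. Uqcrfs1, the Rieske iron-sulphur protein that carries electrons to cytochrome c1, stood at 84.4 and 79.2 CPM at day 21 against 132 and 132 CPM at day 0 (log2 change -0.69, SE 0.08, adjusted p = 8.91e-09). Uqcr10 fell by 0.83 and Uqcrq by 0.45 on the log2 scale. The large core proteins did not fall, and their difference from the other subunits was not tested. Uqcrc1 rose to 86.8 and 96.8 CPM at day 21, against 77.3 and 79.9 CPM at day 0 (log2 change 0.22, SE 0.08, adjusted p = 0.0161), a call lost without either day 0 library (adjusted p = 0.114 and 0.0527) or day 21 replicate 2 (adjusted p = 0.165). Uqcrc2 stood at a log2 change of 0.00 and Uqcr11 at -0.08, and neither passed the test.

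Complex IV fell in its common subunits, of which 8 of 11 fell at day 21 and 0 rose (median log2 change -0.52). Cox7a2, the common form of a subunit at the dimer and supercomplex interface, had 253 and 249.7 CPM at day 0, 206 and 203 CPM at day 3, 133 and 123 CPM at day 7 and 105 and 94.9 CPM at day 21. The fall was gradual, with the 2 libraries of each day close together, and reached 2.52-fold at day 21 (log2 change -1.33, SE 0.08, adjusted p = 3.7e-14). Cox7b had 89.9 and 82.4 CPM at day 0, 76.4 and 69.5 CPM at day 3, 52.7 and 52.1 CPM at day 7 and 46.5 and 42.5 CPM at day 21 (log2 change -0.95, SE 0.09, adjusted p = 6.18e-10). Cox5b, which binds zinc, and Cox8a, the smallest nuclear subunit, changed by -0.70 and -0.68 on the log2 scale, and Cox4i1, the regulatory subunit that binds ATP, by -0.38. Cox6a1, Cox5a and Ndufa4 stood at -0.14, 0.08 and -0.02 and did not pass the test. The fall of Cox6b1 was small (-0.20) and lost its call without day 21 replicate 2 (adjusted p = 0.394) or either day 0 library (adjusted p = 0.14 and 0.0823). Cox7c, at 28 to 78 counts in a library, changed by -0.68 and lost its call without day 0 replicate 2 (-0.35, adjusted p = 0.318) or day 21 replicate 1 (adjusted p = 0.0788).

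**Figure D1:**
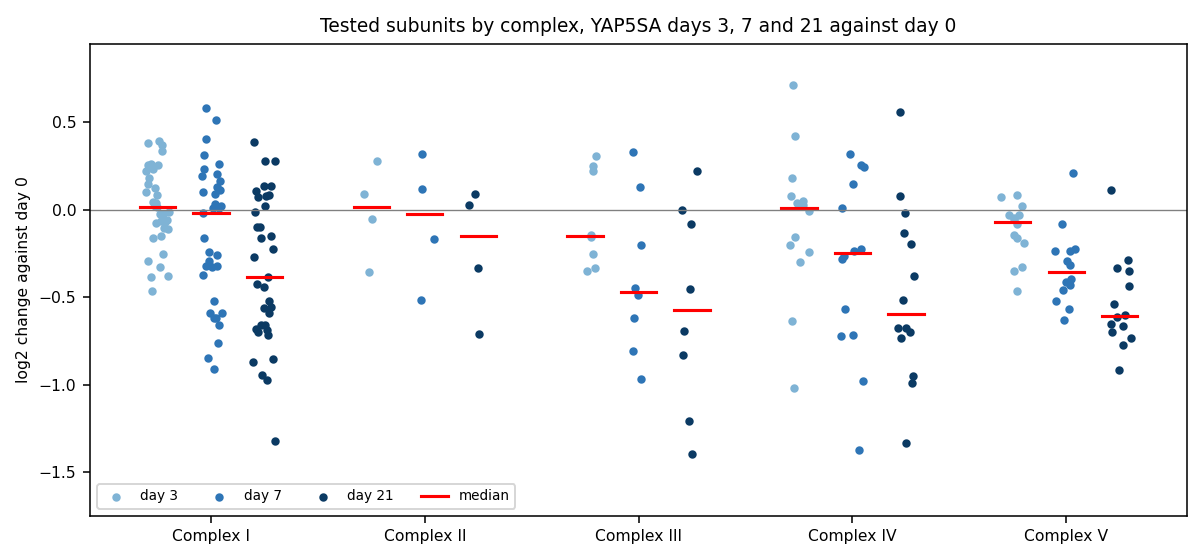
Each point is the log2 change of a tested subunit against day 0 at days 3, 7 and 21, grouped by complex, and red bars are medians. At day 21 the medians of complexes III, IV and V lie at -0.57, -0.60 and -0.61, and that of complex II at -0.15.

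In complex I most falls were among the accessory subunits. Of 28 accessory subunits 18 fell and 2 rose at day 21 (median log2 change -0.48), and of 7 core subunits 2 fell (median 0.02). The difference between these classes was not tested. Ndufb2, a small membrane subunit, had 18.7 and 21.2 CPM at day 0, 15.1 and 18.3 CPM at day 3, 10.4 and 11.7 CPM at day 7 and 8.17 and 7.72 CPM at day 21 (log2 change -1.33, SE 0.15, adjusted p = 2.62e-08). Both day 21 libraries were the lowest of the 8. Ndufa1, a membrane subunit needed for assembly, had 37.3 and 34.6 CPM at day 0, 28.9 and 29.8 CPM at day 3, 23.0 and 23.8 CPM at day 7 and 15.9 and 20.6 CPM at day 21 (log2 change -0.98, SE 0.12, adjusted p = 6.17e-08). Ndufv3, of the module that receives electrons from NADH, had 169.6 and 161 CPM at day 0, 126 and 127 CPM at day 3, 91.4 and 84.9 CPM at day 7 and 91.5 and 89.6 CPM at day 21 (log2 change -0.87, SE 0.07, adjusted p = 1.15e-10). Its fall was in place at day 7 (log2 change -0.91), with no further fall by day 21. Of the core, Ndufv2, which holds an iron-sulphur cluster next to the NADH site, stood at 93.1 and 83.8 CPM at day 21 against 167 and 174 CPM at day 0 (log2 change -0.94, SE 0.08, adjusted p = 3.58e-11), and Ndufs1, the largest subunit, fell by 0.39 on the log2 scale. Ndufv1 and Ndufs3 had log2 changes of -0.15 and 0.08 and did not pass the test. The falls of Ndufa7, Ndufb7 and Ndufs5 each lost their call without at least 1 library: Ndufa7 and Ndufs5 without day 0 replicate 1 (adjusted p = 0.131 and 0.179), Ndufb7 without day 0 replicate 2 (adjusted p = 0.0887), and Ndufs5 also without day 21 replicate 1 (adjusted p = 0.0702).

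Complex II, which has no mitochondrially encoded subunit, divided into pairs. The membrane anchor Sdhd had 136 and 129 CPM at day 0, 105 and 102 CPM at day 3, 90.8 and 94.4 CPM at day 7 and 79.6 and 82.2 CPM at day 21 (log2 change -0.71, SE 0.08, adjusted p = 5.96e-09), and the iron-sulphur subunit Sdhb fell by 0.33. The flavoprotein Sdha (0.09) and the other anchor Sdhc (0.03) did not pass the test at day 21.

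**Figure D2:**
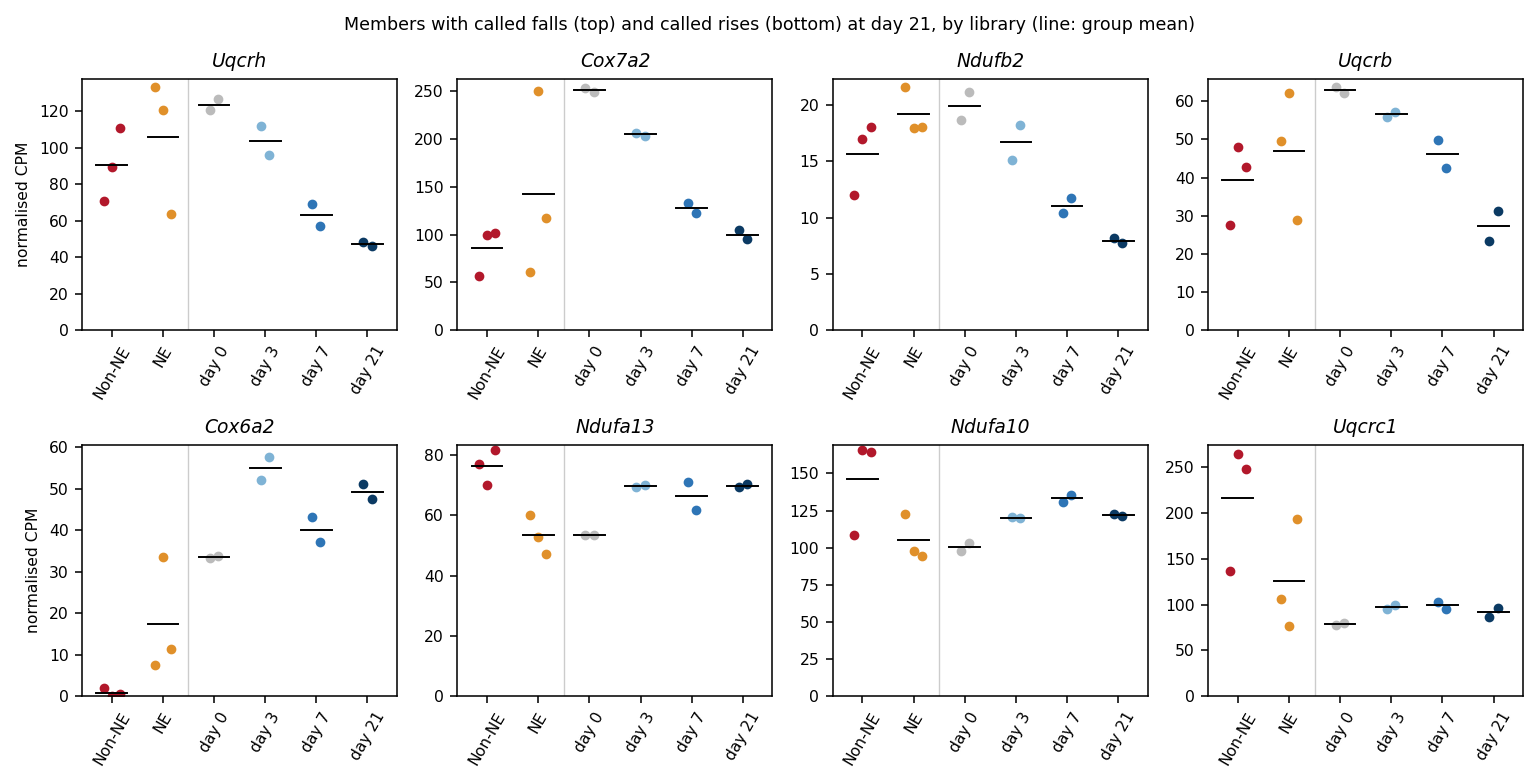
Normalised CPM in each library of 4 members with the largest falls at day 21 (Uqcrh, Cox7a2, Ndufb2, Uqcrb; top) and 4 that rose (Cox6a2, Ndufa13, Ndufa10, Uqcrc1; bottom), over the 6 groups. Points are libraries and lines are group means. The day 21 libraries are at 48.0 and 45.9 CPM for Uqcrh, against 121 and 127 CPM at day 0.

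The members that rose at day 21 included Cox6a2, Ndufa13, Ndufa10 and Uqcrc1, all with small changes and none called in the fit of all 14 libraries (adjusted p = 0.565 for Cox6a2 and 0.0875 for Ndufa13). Ndufa13, also known as GRIM-19, had 53.4 and 53.5 CPM at day 0, 69.6 and 70.0 CPM at day 3, 71.3 and 61.7 CPM at day 7 and 69.4 and 70.4 CPM at day 21 (log2 change 0.39, SE 0.09, adjusted p = 0.00036). Reads of Ndufa13 may be mixed with those of Tssk6 on the other strand, whose exons cover 30.0% of its exon bases, since the use of strand in counting is not given in the sources used here. Ndufa10, a subunit with a nucleoside kinase fold, had 97.8 and 103 CPM at day 0, 121 and 119.8 CPM at day 3, 131 and 135 CPM at day 7 and 122 and 121 CPM at day 21 (log2 change 0.28, SE 0.07, adjusted p = 0.00163). With library totals in place of TMM scaling, the rises of Ndufa10 and Uqcrc1 were no longer called (adjusted p = 0.101 and 0.374). That scaling moved the median of all genes by -0.14, and left the members' median 0.46 below that of all genes, as with TMM.

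Day 3 gave no common direction. Of 78 members 15 rose and 13 fell at day 3 against day 0, and over all genes 26.2% rose and 22.4% fell (48.6% either way), with a median log2 change of -0.03 over the members and 0.01 over all genes. The rises included 8 of complex I and 3 of complex III, and the falls 4 of complex I, 3 of complex III and 3 of complex V. Cox5a, a subunit on the matrix side of complex IV, had 111 and 101 CPM at day 0, 138 and 146 CPM at day 3, 122 and 129 CPM at day 7 and 111 and 112 CPM at day 21 (log2 change 0.42, SE 0.08, adjusted p = 4.37e-05, 3 against 0). Ndufs6, which carries zinc in complex I, had 80.6 and 76.9 CPM at day 0, 98.0 and 105 CPM at day 3, 81.9 and 78.0 CPM at day 7 and 47.1 and 50.9 CPM at day 21: it rose at day 3 (log2 change 0.37, SE 0.08, adjusted p = 0.000411) and stood below day 0 at day 21 (log2 change -0.68, SE 0.09, adjusted p = 9.6e-08). Atp5g1 fell at day 3 (log2 change -0.47, adjusted p = 0.0134), and the call was lost without day 0 replicate 2 (adjusted p = 0.0924) or day 3 replicate 1 (adjusted p = 0.0636). Without day 0 replicate 1 the counts were 8 rises and 7 falls, and without day 0 replicate 2 there were 7 rises. Ndufa12 and Atp5s were among the largest rises (log2 change 0.39 and 0.42), and both lost their call without either day 0 library or day 3 replicate 1 (adjusted p from 0.0545 to 0.187).

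By day 7 the falls outnumbered the rises. At day 7 against day 0, 39 of 78 members fell and 14 rose, against 33.8% of all genes that fell and 37.2% that rose (71.0% either way), and the median log2 change was -0.25 over the members and 0.03 over all genes. Falls were called for 6 of 8 subunits of complex III, 9 of 14 of complex V, 8 of 14 of complex IV and 13 of 35 of complex I, and 8 of complex I rose. Uqcrh, Cox7a2 and Ndufv3 had log2 changes of -0.97, -0.98 and -0.91 at this day. Ndufb6 had 30.3 and 28.3 CPM at day 0, 36.8 and 37.1 CPM at day 3, 48.2 and 39.6 CPM at day 7 and 32.1 and 29.9 CPM at day 21 and was the largest rise (log2 change 0.58, SE 0.11, adjusted p = 3.09e-05, 7 against 0), although exons of Smim27 on the other strand cover 39.0% of its exon bases. Ndufa12 rose by 0.52, Ndufa10 by 0.41 and the core subunits Ndufs7 and Ndufs8 by 0.23 and 0.26 on the log2 scale. With library totals Ndufs7 and Ndufs8 were not called (log2 change 0.03 and 0.06, adjusted p = 0.794 and 0.535). The DESeq2 test also did not call Ndufs7 (adjusted p = 0.0942). Ndufs7 and Ndufs8 stood at 0.16 and 0.24 without day 0 replicate 1, and at 0.14 and 0.24 without day 7 replicate 1. The rises numbered 9 without either day 0 library and 6 without day 7 replicate 1, and Ndufa12 lost its call without that library (adjusted p = 0.0754). Library totals gave 2 rises, and moved the median of all genes to -0.17.

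The steps between days share libraries with these comparisons and are given for the members' own course. At day 7 against day 3, 37 members fell and 4 rose, against 26.1% and 29.5% of all genes (55.6% either way; median -0.23 over the members). The largest falls were Ndufa6 (-0.74), an accessory subunit of complex I, Uqcrh (-0.72), Cox7a2 (-0.68), Ndufb2 (-0.60) and Ndufv3 (-0.52). The rises were Ndufb10 (0.27), Ndufa4 (0.27), Ndufb6 (0.25) and Sdha (0.17), none of which was called without day 7 replicate 1, and there were 2 rises without either library of day 0 or day 3 and 7 without either library of day 21. At day 21 against day 7, 35 fell and 4 rose, against 24.2% and 26.1% of all genes (50.3% either way; median -0.19 over the members). The largest falls here were Uqcrb (-0.76), Ndufb10 (-0.75), Ndufs6 (-0.71), Ndufb6 (-0.50) and Ndufb2 (-0.48). Ndufb10, an accessory membrane subunit, had 85.4 and 80.0 CPM at day 0, 72.1 and 84.8 CPM at day 3, 98.0 and 91.3 CPM at day 7 and 54.6 and 57.5 CPM at day 21, and Ndufa6 had 75.7 and 65.7 CPM at day 0, 69.1 and 70.2 CPM at day 3, 41.0 and 42.5 CPM at day 7 and 44.0 and 43.1 CPM at day 21. The rises included Uqcr11 (0.41), Atp5sl (0.33) and Cox6a2 (0.30), with 0 rises left without day 7 replicate 2 and 2 without day 21 replicate 1, and the falls numbered 20 without day 7 replicate 1.

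**Figure D3:**
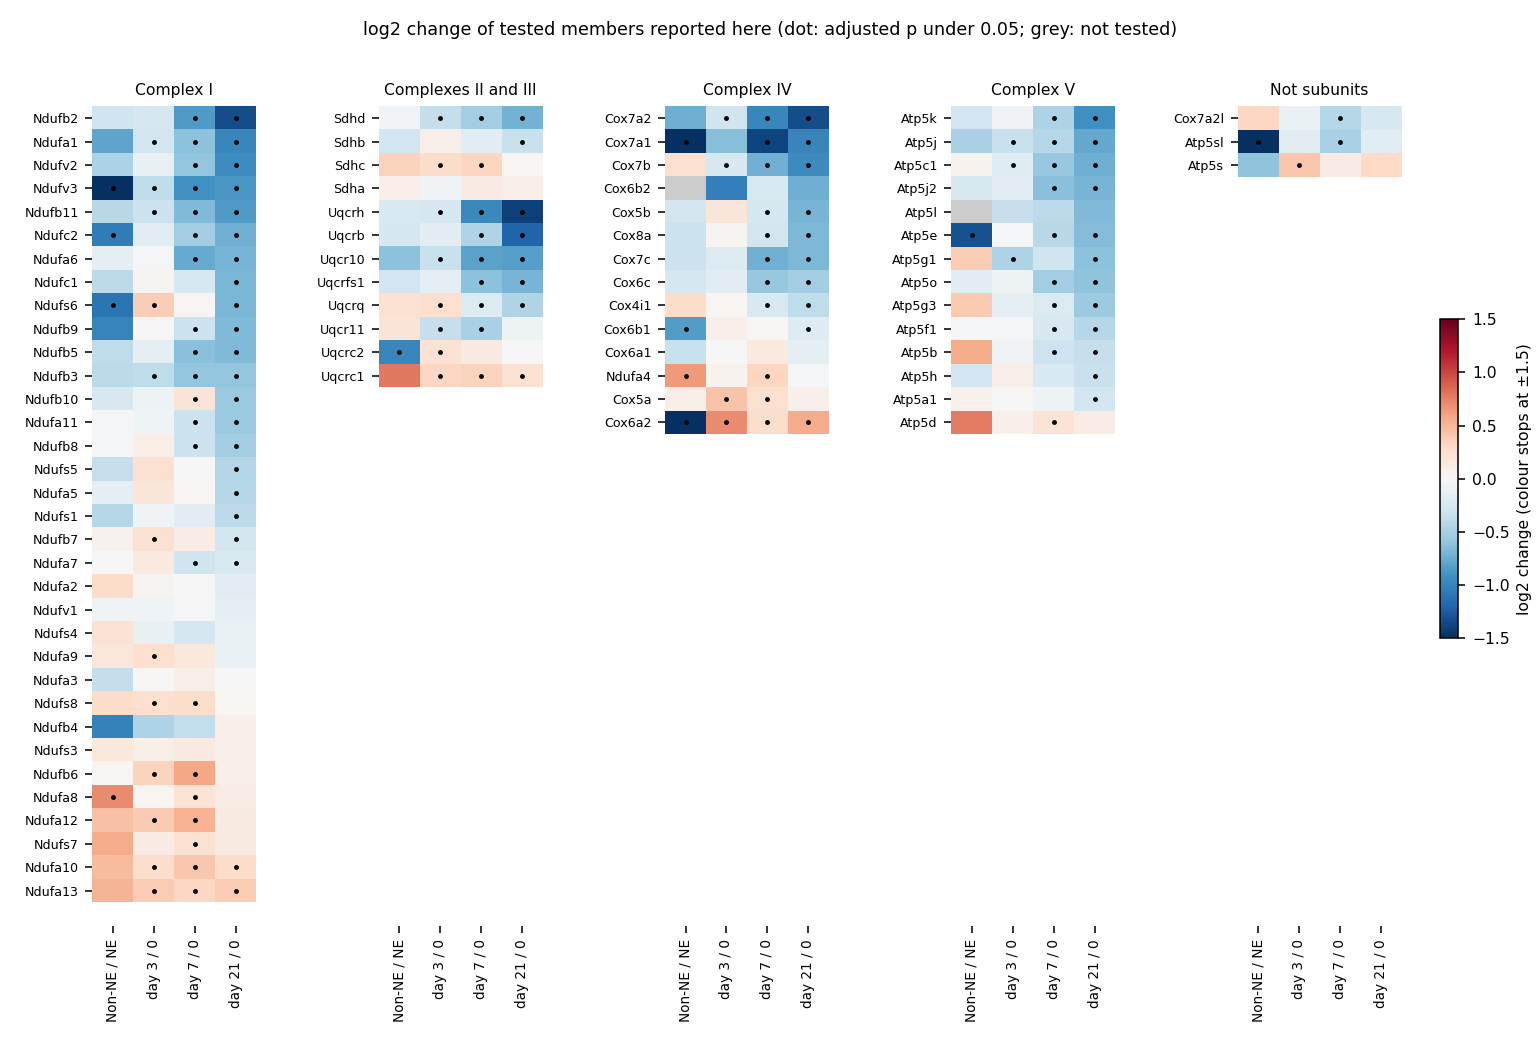
Log2 change of the tested members reported here (rows, by complex) in Non-NE against NE and at days 3, 7 and 21 against day 0 (columns). Colours stop at 1.5 either way, and dots mark adjusted p under 0.05. The day 21 column holds 48 called falls.

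The summed level per complex, in TPM (per exon length, GENCODE M21, with no TMM scaling) was also followed over the days. Complex I summed to 7358 and 7139.7 TPM at day 0, 6896 and 6935 TPM at day 3, 5775 and 5653 TPM at day 7 and 5091 and 5177 TPM at day 21. Complex II summed to 1046 and 997 TPM at day 0, 917 and 916 TPM at day 3, 783 and 809 TPM at day 7 and 752 and 742 TPM at day 21. Complex III summed to 3235 and 3016 TPM at day 0, 2690.4 and 2782 TPM at day 3, 1973 and 1898 TPM at day 7 and 1791 and 1901 TPM at day 21. Every day 21 library was below every day 0 library for each of these complexes. Complex IV summed to 8013 and 7943 TPM at day 0, 7610.2 and 7758 TPM at day 3, 6418 and 6139 TPM at day 7 and 5466 and 5594 TPM at day 21. Complex V summed to 5015 and 4859 TPM at day 0, 4520.1 and 4504 TPM at day 3, 3576 and 3553 TPM at day 7 and 3388 and 3304 TPM at day 21. In each of the 5 complexes both day 3 libraries already lay below both day 0 libraries. The counts of called members, made with TMM scaling, showed no common direction at that day. With library totals, also without TMM scaling, the median log2 change of all genes was -0.04 at day 3 and -0.12 at day 21 against day 0. All members together took 0.971% to 0.984% of the counts at day 0, 0.926% to 0.928% at day 3, 0.726% to 0.745% at day 7 and 0.667% to 0.694% at day 21.

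Most tested members have short coding sequences, and falls were commoner among these than among longer ones. At day 21, 38 of the 56 tested members with a coding sequence under 600 bases fell (67.9%, median log2 change -0.56), against 10 of 21 longer ones (47.6%, median -0.15). Over all tested genes with a coding length, 41.3% of the short and 33.2% of the long ones fell. Across the 77 members Spearman's rho between coding length and log2 change was 0.385, and across 12495 genes it was 0.0545, as a description over genes of the same libraries. The coding sequences of Uqcrh, Cox7a2, Ndufb2 and Atp5k have 267, 249, 315 and 213 bases, and that of Ndufs1 has 2181. The part of length in the falls was not tested.

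**Figure D4:**
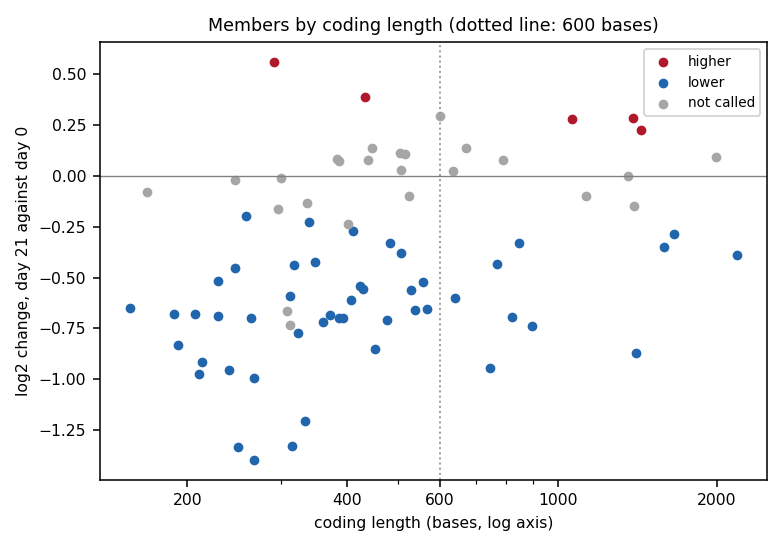
Log2 change at day 21 against day 0 of each tested member (vertical) over its coding length in bases (horizontal, log scale). The dotted line stands at 600 bases, left of which 38 of 56 members fell and right of which 10 of 21 did.

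Genes around the chain were set beside its nuclear subunits at day 21, with no test of the difference between the lists. Among the 13 mitochondrially encoded subunits, 5 were listed at 0 in all libraries, so the deposited counts of these genes are incomplete. Of 7 tested 2 rose, mt-Nd2 (0.78) and mt-Nd4 (0.36), and 0 fell. All counts of these lists stand beside 37.7% of all genes that rose and 34.0% that fell, and those of the assembly factors and of the cycle enzymes are near these shares. Of 40 tested assembly factors 15 rose and 11 fell (median 0.10). Uqcc1, a complex III factor, stood at 155 and 157 CPM at day 21 against 75.0 and 75.5 CPM at day 0 (log2 change 1.05, SE 0.08, adjusted p = 7.46e-12), and its partner Uqcc2 at 62.0 and 75.0 CPM against 152 and 138 CPM (log2 change -1.08, SE 0.09, adjusted p = 5.12e-11). Sco1, a copper chaperone of complex IV, rose by 1.08, and Bcs1l, which inserts the Rieske protein, by 0.76. Of 16 tested carriers and subunits outside the symbol rule 10 fell and 3 rose (median -0.39), with falls for Cycs (-1.10), which is cytochrome c, Atpif1 (-1.09), the inhibitor of complex V, Slc25a5 (-1.02), an ADP/ATP carrier, and Higd1a (-1.65), and rises for the electron transfer flavoprotein genes Etfa (0.55) and Etfb (0.81). Of 18 enzymes of the tricarboxylic acid cycle and the pyruvate dehydrogenase step 7 rose, Suclg2 most (1.18), and 7 fell (median -0.06). Of 13 tested regulators of mitochondrial biogenesis 6 fell, among them Tfam (-0.48), which packages and transcribes mitochondrial DNA, and Nrf1 (-0.24), and 3 rose, Yy1 (0.44), Pprc1 (0.43) and Ppargc1b (0.40).

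The next question was how Non-NE and NE cells differ. Few members were called: of 76 tested, 9 were lower and 3 higher in Non-NE, or 11.8% and 3.95% of the members, against 22.8% and 20.0% of all genes (42.8% either way). Their median log2 change was -0.19, against -0.02 over all genes. The spread between these 6 libraries was wider than that of the days (biological coefficient of variation 0.399 and 0.0548). Of the 12 calls, 5 were kept when each library was left out in turn: Atp5e, Atp5sl, Cox7a1, Ndufc2 and Ndufv3, all lower in Non-NE. Of the complexes, complex I had 3 falls and 2 rises among 35, complex III 1 fall among 8, complex IV 3 falls and 1 rise among 13, complex V 1 fall among 13, and complex II none among 4.

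Ndufv3 had 48.0, 42.8 and 55.5 CPM in Non-NE libraries, against 174, 167 and 117 CPM in NE libraries. The groups did not overlap, and the Non-NE level was 3.13-fold lower (log2 change -1.65, SE 0.22, adjusted p = 0.00146). Ndufc2, of the membrane arm of complex I, had 56.5, 39.2 and 41.3 CPM in Non-NE libraries, against 85.8, 103 and 94.8 CPM in NE libraries (log2 change -1.05, SE 0.21, adjusted p = 0.00749). Atp5e, the epsilon subunit of F1, had 22.6, 35.6 and 41.6 CPM in Non-NE libraries, against 60.1, 94.9 and 91.3 CPM in NE libraries (log2 change -1.30, SE 0.30, adjusted p = 0.0131). Atp5sl, whose product acts in complex I assembly, had 8.21, 14.5 and 6.88 CPM in Non-NE libraries, against 38.4, 49.5 and 28.0 CPM in NE libraries (log2 change -1.97, SE 0.38, adjusted p = 0.00632). Ndufs6 had 23.0, 34.0 and 32.8 CPM in Non-NE libraries, against 63.4, 79.8 and 49.6 CPM in NE libraries (log2 change -1.10, SE 0.27, adjusted p = 0.0156), and lost the call without the NE library shared with day 0 (NE replicate 2, adjusted p = 0.05). In each of these 5 genes the highest Non-NE library stayed below the lowest NE library. The 5 were taken from the called members, so this adds no support to their calls. Uqcrc2, a core protein of complex III, had 141, 100.2 and 85.1 CPM in Non-NE libraries, against 180.4, 205 and 257 CPM in NE libraries (log2 change -0.98), and Cox6b1, which faces the intermembrane space, had 118, 127 and 75.1 CPM in Non-NE libraries, against 202, 228 and 141 CPM in NE libraries (log2 change -0.84). Uqcrc2 lost its call without replicate 2 or 3 of either group (adjusted p from 0.0548 to 0.0689), and Cox6b1 without any library but NE replicate 3 (adjusted p from 0.0619 to 0.153).

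The members called higher in Non-NE included Ndufa8 and Ndufa4. Ndufa8, an accessory subunit on the intermembrane side of complex I, had 75.6, 94.3 and 122 CPM in Non-NE libraries, against 64.6, 58.9 and 55.6 CPM in NE libraries (log2 change 0.70, SE 0.22, adjusted p = 0.0404). Ndufa4 had 139.8, 148 and 151 CPM in Non-NE libraries, against 104, 96.2 and 82.6 CPM in NE libraries (log2 change 0.63, SE 0.17, adjusted p = 0.0209). Both calls were lost with library totals (adjusted p = 0.142 and 0.109) and without NE replicate 2 (adjusted p = 0.0858 and 0.05), and also without Non-NE replicate 2 or Non-NE replicate 3. Without NE replicate 3 Ndufa4 and Ndufa8 lost their calls too, and Uqcrc1 was the only member then called higher. Library totals moved the median of all genes to -0.28 in this comparison.

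Uqcrh and Cox7a2 were not called here. Uqcrh had 70.9, 89.7 and 111 CPM in Non-NE libraries, against 133, 120.4 and 63.8 CPM in NE libraries (log2 change -0.23), and Cox7a2 had 56.3, 99.5 and 102 CPM in Non-NE libraries, against 60.4, 251 and 117 CPM in NE libraries (log2 change -0.73), so the groups overlapped in both. Summed per complex, complex I held 4887, 4996 and 5701 TPM in Non-NE against 6931, 7346 and 7682 TPM in NE libraries, and complex III 1599, 2063 and 2246 TPM against 2921, 3234 and 2631 TPM. Complex IV held 3658, 5371 and 5060.0 TPM in Non-NE against 7126, 8031 and 6023 TPM in NE libraries, complex V 4965, 5024 and 5135 TPM against 6295, 5003 and 5093 TPM, and complex II 697, 817 and 874 TPM against 850.1, 1046 and 1075 TPM. The groups did not overlap for complexes I, III and IV and overlapped for II and V, with no test over these sums. The sums carry no TMM scaling. With library totals, also without it, the median log2 change of all genes was -0.28 in this comparison, so part of the separation may be scaling. The members took 0.821% to 0.870% of the counts in Non-NE and 0.911% to 1.07% in NE libraries.

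Of the genes around the chain, Ppargc1b, a coactivator of mitochondrial biogenesis, had 0.947, 0.827 and 0.521 CPM in Non-NE libraries, against 11.1, 11.9 and 6.69 CPM in NE libraries (log2 change -3.69, SE 0.51, adjusted p = 0.00147), and its relative Pprc1 was higher in Non-NE (log2 change 1.04). In all, 3 of 14 tested regulators were higher and 2 lower in Non-NE, where 20.0% of all genes were higher and 22.8% lower. Of 40 assembly factors 4 were higher and 4 lower, of 16 carriers 2 were higher and 2 lower, and of 18 cycle enzymes 1 was higher, Pdha1 (0.81). Among 7 tested mitochondrially encoded subunits mt-Cytb was higher (1.07).

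Several subunits of complex IV have a tissue form beside the common one. Cox6a2, the form of heart and skeletal muscle, had 12, 1 and 5 counts in the Non-NE libraries and 78, 305 and 106 in the NE libraries, or 1.89, 0.118 and 0.521 CPM in Non-NE libraries, against 7.47, 33.5 and 11.3 CPM in NE libraries. The groups did not overlap, and the fitted level was 21.3-fold lower in Non-NE (log2 change -4.41, SE 1.03, adjusted p = 0.013). The log2 change was -5.67 without Non-NE replicate 1, -3.46 without NE replicate 2 (adjusted p = 0.0468) and lost its call without Non-NE replicate 3 (adjusted p = 0.051). Over the days Cox6a2 had 33.3 and 33.7 CPM at day 0, 52.2 and 57.7 CPM at day 3, 43.2 and 37.1 CPM at day 7 and 51.2 and 47.5 CPM at day 21. It rose at day 3 (log2 change 0.71, SE 0.10, adjusted p = 1.51e-06), stood at a log2 change of 0.26 at day 7, and stood above day 0 at day 21 (log2 change 0.56, SE 0.10, adjusted p = 2.61e-05). The day 7 call was lost without either day 0 library or day 7 replicate 1 (adjusted p from 0.0925 to 0.339).

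Cox6a1, the common form, had 139.7, 218 and 237 CPM in Non-NE libraries, against 273, 274 and 199.9 CPM in NE libraries, and 277 and 296 CPM at day 0, 274 and 297 CPM at day 3, 331 and 304 CPM at day 7 and 262 and 260.4 CPM at day 21. It was called in none of these 4 comparisons (log2 change -0.33 in Non-NE against NE and -0.01, 0.15 and -0.14 at days 3, 7 and 21). Cox6a2 made up 0.537% ± 0.698 (SD, n = 3) of the counts of the pair in Non-NE and 6.30% ± 4.20 (SD, n = 3) in NE libraries. Without Non-NE replicate 1 the mean was 0.137% in Non-NE, and without NE replicate 2 it was 4.00% in NE. Its share was 10.5% ± 0.364 (SD, n = 2) at day 0, 16.1% ± 0.19 (SD, n = 2) at day 3, 11.2% ± 0.464 (SD, n = 2) at day 7 and 15.9% ± 0.646 (SD, n = 2) at day 21. Skeletal and heart muscle markers summed to 2.05 to 33.9 CPM in Non-NE and 8.62 to 48.5 CPM in NE libraries, and to 49.3 to 52.0 CPM at day 0, 161 to 161 CPM at day 3, 139 to 147 CPM at day 7 and 54.9 to 59.6 CPM at day 21. Of the 9 markers, Myh7 had 0, 0 and 0 CPM in Non-NE against 5.75, 36.9 and 7.22 CPM in NE libraries, and 37.5 and 39.9 CPM at day 0, 107 and 92.9 CPM at day 3, 80.1 and 70.4 CPM at day 7 and 26.9 and 30.2 CPM at day 21. The other markers made up the whole sum in the Non-NE libraries. At day 21 the sum stood above day 0, while Myh7 stood below it. The part of the muscle markers in the course of Cox6a2 was not tested.

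Cox7a1, the muscle form of the Cox7a pair, had 0.316, 0.236 and 0.521 CPM in Non-NE libraries, against 2.4, 3.19 and 2.76 CPM in NE libraries, from 2, 2 and 5 counts in Non-NE and 25, 29 and 26 in NE libraries. It was 7.41-fold lower in Non-NE (log2 change -2.89, SE 0.51, adjusted p = 0.00383), with no overlap. Over the days it had 3.04 and 3.47 CPM at day 0, 1.95 and 2.22 CPM at day 3, 1.25 and 1.24 CPM at day 7 and 1.67 and 1.58 CPM at day 21, lower at day 7 (log2 change -1.38, SE 0.32, adjusted p = 0.000493) and at day 21 (log2 change -0.99, SE 0.30, adjusted p = 0.00465), although DESeq2 did not call it at day 21 (adjusted p = 0.063). At day 21, then, Cox7a1 fell together with its common partner Cox7a2, while Cox6a2 rose and its partner Cox6a1 was not called. Cox7a1 held 0.435% ± 0.173 (SD, n = 3) of the pair's counts in Non-NE and 2.46% ± 1.29 (SD, n = 3) in NE libraries, and 1.28% ± 0.131 (SD, n = 2) at day 0, 1.01% ± 0.0994 (SD, n = 2) at day 3, 0.968% ± 0.0518 (SD, n = 2) at day 7 and 1.61% ± 0.0516 (SD, n = 2) at day 21.

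**Figure D5:**
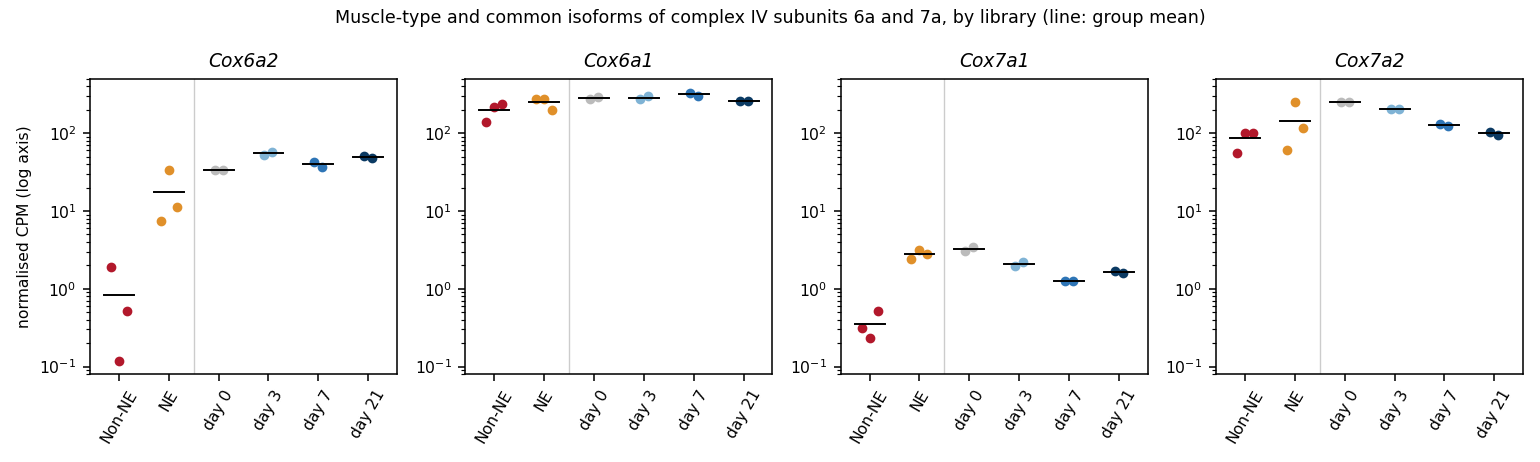
Normalised CPM (log axis) of the muscle forms Cox6a2 and Cox7a1 and the common forms Cox6a1 and Cox7a2 in each library of the 6 groups. Cox6a2 lies at 0.118 to 1.89 CPM in Non-NE and 7.47 to 33.5 CPM in NE libraries, while Cox6a1 lies between 139.7 and 331 CPM in all of them.

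The remaining tissue and induced forms were near the limit of detection in most libraries, and none could be compared by a test between Non-NE and NE. Cox6b2, the testis form, had 0 counts in all Non-NE libraries and 7, 16 and 5 in the NE libraries, at least 9.42-fold lower in Non-NE at a floor of 3 counts over the group (at least 5.90-fold without NE replicate 2, the library shared with day 0). Over the days it had 17 and 18 counts at day 0, 11 and 6 at day 3, 15 and 12 at day 7 and 12 and 8 at day 21 and was not called. Ndufa4l2, a form of Ndufa4 induced by low oxygen, had 0 counts in all Non-NE libraries and 164, 5 and 2 in the NE libraries, at least 57.5-fold lower in Non-NE, a value that rests on NE replicate 1 (at least 3.68-fold without it). Cox7b2 had 7 and 7 counts at day 21 and at most 3 in any other library. Cox4i2, the form of lung, had 0 counts in each Non-NE library and at most 7 elsewhere, Cox8b had 1 count over all libraries, and Cox8c had 0 counts, with floors of 3 counts over a group. Floors cover counting error only.

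Counts of some members are uncertain because their sequence is shared. In 10 of the 84 members with a GENCODE gene at least 25% of the 50-base words also occur in transcripts of other genes (Atp5h, Atp5l, Atp5l-ps1, Cox5b, Cox7c, Ndufa12, Ndufb4, Ndufs3, Ndufs5 and Uqcrb), and in 46 none does. Atp5f1 (23.2%) and Ndufb9 (23.4%) lie just under that threshold, which was set after the data were seen. In 3 members at least 25% of the exon bases lie under exons of another annotated gene (Atp5o, Ndufa13 and Ndufb6). For Atp5o these are Donson and another entry of the same symbol, with overlap on the same strand. Ndufb9 had 117, 80.2 and 94.1 CPM in Non-NE against 96.6, 122 and 365 CPM in NE libraries, with NE replicate 3 far above the other libraries. Ndufb4 stood at 10.9 and 4.95 CPM at day 21 against 6.93 and 8.15 CPM at day 0, and was not called. In the days 7 members were not tested for low counts (Atp5g2, Atp5l-ps1, Cox4i2, Cox7b2, Cox8b, Cox8c and Ndufa4l2), and in Non-NE against NE also Atp5l and Cox6b2.

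The last comparison set the day 21 change beside the difference between the cell states. Since NE replicate 2 is part of a day 0 library, the change at day 21 against day 0 minus that of Non-NE against NE was tested over the 13 other libraries. The biological coefficient of variation was 0.266 in this fit, against 0.399 in the NE and Non-NE libraries and 0.0548 in the days. The estimate of the spread was shared between both sets, so the p-values may be too small for the wider NE and Non-NE set. Of 78 members the difference was positive for 4 and negative for 14, against 21.2% and 11.6% of all genes (32.8% either way), with a median of -0.39 over the members and 0.12 over all genes. Cox6b2 is one of the 4, but it has 0 counts in all Non-NE libraries, was not tested between Non-NE and NE, and entered this fit through the day libraries, so its call supports nothing. Set beside the Non-NE against NE change without NE replicate 2, Uqcrh had a log2 change of -1.40 at day 21 and -0.11 in Non-NE. Its tested difference was -1.33 (-1.97 without NE replicate 1 and -0.89 without NE replicate 3). Cox6a2 had 0.56 at day 21 and -3.46 in Non-NE, with a tested difference of 4.09 (5.26 without Non-NE replicate 1). Atp5g1 had -0.61 at day 21 and 0.49 in Non-NE, with a tested difference of -1.14. Of the 17 calls other than Cox6b2, 5 were kept when each library was left out in turn (Atp5c1, Atp5g3, Cox6a2, Cox7b and Ndufa6), and with library totals 4 negative differences were left. The positive differences numbered 2 without either day 0 library or day 21 replicate 2. The negative ones numbered 24 without NE replicate 1 or Non-NE replicate 1, 7 without NE replicate 3, 4 without either day 0 library, 9 without either day 3 library, 8 without either day 7 library, and 5 and 4 without day 21 replicates 1 and 2.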

How the data were processed

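Oligo(dT)-selected RNA was sequenced in 14 libraries of 6 groups. The table deposited by the authors held raw counts, whole numbers for 32926 symbols, of which 10220 were 0 in all libraries. Per the submitters' processing notes, STAR 2.4.2 aligned the reads (mm10) and featureCounts made the counts. The gene annotation, the use of strand and the treatment of reads with several matches are not given in the sources used here. Coordinates, exon and coding lengths came from GENCODE M21, which held 84 of the 85 members.

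After TMM scaling and filterByExpr, every gene kept was tested in R 4.3.3 by the quasi-likelihood method of edgeR 4.0.16 with robust fitting. P-values were adjusted over all genes tested by Benjamini-Hochberg, and calls were made at 0.05. The NE and Non-NE libraries were fitted together (6 libraries, 12966 genes), the days together (8 libraries, 13996 genes), and the difference of changes over 13 libraries without NE replicate 2 (14820 genes). Alternatives were DESeq2 1.42.0 size factors and its test, library totals, no count filter, at least 1 CPM, limma-voom (limma 3.58.1), each library left out, a block for the replicate number, and 1 fit of all 14 libraries. The fits were tested on simulated data.

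The members, the gene lists and the rule for named genes were chosen with earlier results of these data known. The rule took any member, with values in every library for the isoform sets and for the 5 largest called rises and falls of a comparison, and listed genes around the chain. The values of 1 member are not reported here, although it is part of the counts and medians. Values for Atp5k, Cox7b, Ndufa1, Uqcrfs1, Ndufv2, Ndufc2, Cox6b1, Ndufb9 and Ndufb4 were added after they had been seen, as were the NRF1 core, the threshold for shared sequence and the alternative that leaves out members past it.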

Additional observations from a re-analysis of the deposited data

Results flagged for a closer look

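The change at day 21 against day 0 differed from the change in Non-NE against NE for 18 of 78 members, over 13 libraries. This was by edgeR's test of the difference itself (values are log2 differences, day 21 change minus Non-NE change). Over all genes the same test called 21.2% positive and 11.6% negative (32.8% either way). The estimate of the spread was shared between the days and the wider NE and Non-NE set, so its p-values may be too small. The difference was positive for Cox6a2 (4.09, and 5.26 without Non-NE replicate 1), Cox7a1 (1.73) and Atp5sl (1.53). Cox6b2 (4.83) has 0 counts in all Non-NE libraries and entered this fit through the day libraries, so its value depends on the prior count and its call supports nothing. In complex III it was negative for Uqcrh (-1.33), Uqcrb (-1.27) and Uqcrfs1 (-0.47). The value for Uqcrh was -1.97 without NE replicate 1 and -0.89 without NE replicate 3. In complex IV the difference was negative for Cox7b (-1.35), Cox7a2 (-1.34), Ndufa4 (-0.73) and Cox4i1 (-0.64). In complex V it was negative for Atp5g1 (-1.14), Atp5g3 (-0.93) and Atp5c1 (-0.84). In complexes I and II it was negative for Ndufa6 (-1.16), Ndufb2 (-1.05), Ndufb8 (-0.62) and Sdhd (-1.04). The calls for Atp5c1, Atp5g3, Cox6a2, Cox7b and Ndufa6 were kept under every other setting run for this contrast, and each of the other 12 was lost in at least 1. Markers of Non-NE or mesenchymal cells summed to 9136 to 23468 CPM in Non-NE libraries and 1553 to 1677 CPM at day 21, and epithelial markers to 4.73 to 30.7 CPM in Non-NE libraries and 3112 to 3158 CPM at day 21. Their part in these differences was not tested.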

How the results depend on the processing

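DESeq2 size factors, limma-voom, at least 1 CPM and leaving out members with shared sequence (an alternative chosen after seeing the data) kept every count of called members within 1.5 times its value. Library totals gave 0 rises and 17 falls in Non-NE against NE, 2 rises each at day 7 and day 21 against day 0, 0 rises at day 7 against day 3, 23 falls at day 21 against day 7, and 4 negative differences of changes. Over all genes, calls either way with library totals numbered 5687 in Non-NE against NE, against 5554 with TMM scaling. They numbered 10265 at day 7 and 10229 at day 21 against day 0, against 9932 and 10032. For the difference of changes they numbered 4805, against 4864. Library totals lowered the median of all genes at day 7 against day 0 to -0.17, and 15 changes turned negative there. Those called under either scaling were Cox6b1 at -0.19, Ndufb10 at -0.0072 and Ndufs6 at -0.18. The fit of all 14 libraries, whose biological coefficient of variation was 0.293, gave 12 rises and 17 falls in Non-NE against NE, 0 rises and 0 falls at day 3, 1 rise and 13 falls at day 7, and 0 rises and 24 falls at day 21, each against day 0. It gave 0 rises and 1 fall at day 7 against day 3, and 0 rises and 0 falls at day 21 against day 7. The DESeq2 test gave 8 falls at day 3 against day 0, 2 rises at day 7 against day 3, and 2 rises and 23 falls at day 21 against day 7. For the fit of all 14 libraries and the DESeq2 test, the shares of all genes called are not given here. Their counts therefore cannot separate a change in the members from a general change in calls. No count filter gave 2 rises at day 7 against day 3. With the replicate number as a block there were 0 rises in Non-NE against NE, and the other counts stayed within 1.5 times. Same-numbered libraries did not deviate together (correlations -0.0283 to 0.0456 in NE and Non-NE and -0.0614 to 0.0242 over the days), so no pairing by number was seen. With 2 libraries per day their deviations mirror each other, and separate handling of same-numbered libraries cannot be shown this way.

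With each library left out in turn, rises ran from 0 to 3 and falls from 6 to 9 in Non-NE against NE. Against day 0 they ran from 7 to 17 and 7 to 13 at day 3, from 6 to 16 and 31 to 44 at day 7, and from 4 to 6 and 45 to 49 at day 21. They ran from 0 to 7 and 26 to 39 at day 7 against day 3, and from 0 to 5 and 20 to 37 at day 21 against day 7. Positive differences of changes ran from 2 to 6 and negative ones from 4 to 24. Ndufb4, uncalled at day 21, stood at a log2 change of -0.60 without day 21 replicate 1 and 0.52 without day 21 replicate 2. Of the calls, 24 of 53 at day 21, 14 of 53 at day 7, 0 of 28 at day 3 and 5 of 12 in Non-NE against NE held under every setting run. The causes were not tested.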
